A study of Mus musculus with 8 samples.

Results

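Liver sinusoidal endothelial genes were examined in bulk RNA sequencing of whole liver from Brap LKO and Brap F/F mice. They are 10 named genes found by symbol among the 24451 genes of the deposited table. Of these, 8 are carried by most sinusoidal endothelium (Stab1, Stab2, Lyve1, Clec4g, Fcgr2b, Pecam1, Kdr and Oit3), and 2, Wnt2 and Rspo3, are ligands made by endothelium near the central vein. All 10 were present and all 10 passed the filter on low values. Brap LKO mice (n = 4) carry floxed Brap alleles and Alb Cre, and Brap F/F mice (n = 4) carry the same floxed alleles without Cre. The labels call the second group wild type. Alb Cre acts in hepatocytes, the cells that make albumin, so the endothelium measured here was not its target. All mice were on the C57BL/6 strain (C57BL/6J for the floxed line in the methods) and 18 wk old, were male by the study's methods, and were fasted for 6 h before the left lobe was taken.

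Sinusoidal endothelial cells line the liver's capillaries. They have open pores in place of a continuous wall with a basement membrane, and they clear waste from the blood through scavenger receptors, lectins and Fc receptors. Those near the central vein secrete Wnt ligands and R-spondin, which hold neighboring hepatocytes in the pericentral state through beta-catenin. When liver is scarred, these cells can take on features of continuous capillaries, a change known as capillarization.

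The reads counted on genes ranged from 26280884 to 33313914 between livers. Values are normalized counts, which are reads divided by the authors' size factor for each liver. Group differences are log2 fold changes of (normalized count + 1), Brap LKO minus Brap F/F, from limma, with 95% confidence intervals and p-values adjusted by the Benjamini-Hochberg method over 15352 genes with a mean of at least 5. The targeted gene, Brap, had normalized counts between 3641 and 4203 in the Brap LKO livers and between 3994 and 4410 in the Brap F/F livers. Its log2 fold change was -0.07 (adjusted p = 0.631 from limma), so total Brap counts did not check the labels. Hepatocyte transcripts dominated all 8 livers, with Alb alone taking between 5.17% and 9.34% of reads.

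None (0) of the 10 sinusoidal endothelial genes differed between Brap LKO and Brap F/F livers at an adjusted p under 0.05 from limma, where 0.769% of all tested genes did. In all tested genes this share was 0.664% for higher and 0.104% for lower in Brap LKO. At an unadjusted p under 0.05 there was 1 gene, Rspo3, which was higher, where the background was 15.8% in either direction and 9.23% for higher. edgeR and DESeq2 on the recovered reads also passed 0 of 10, with 2 at an unadjusted p under 0.05 in each. Among all genes, 2.73% were higher in Brap LKO with DESeq2, and 2.99% were when livers were scaled to equal totals, a scaling that passed 0 of the 10 as well. The fitted values all lay on the same side of 0, from 0.02 for Stab1 to 0.34 for Rspo3, with a median of 0.22. That median rested on single livers, since leaving out replicate 1 of Brap F/F gave 0.10, leaving out replicate 4 of Brap F/F or replicate 1 of Brap LKO gave 0.12, and leaving out replicate 3 of Brap F/F gave 0.37. In each of these fits but the last, 8 of the 10 genes were above 0. Over all tested genes the median was -0.01, and 48.0% of genes were above 0. The 10 signs are not separate observations, because the genes rose and fell together from liver to liver, as described further on. In whole liver, a change in the number of endothelial cells and a change in RNA per endothelial cell cannot be told apart.

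**Figure D1:**
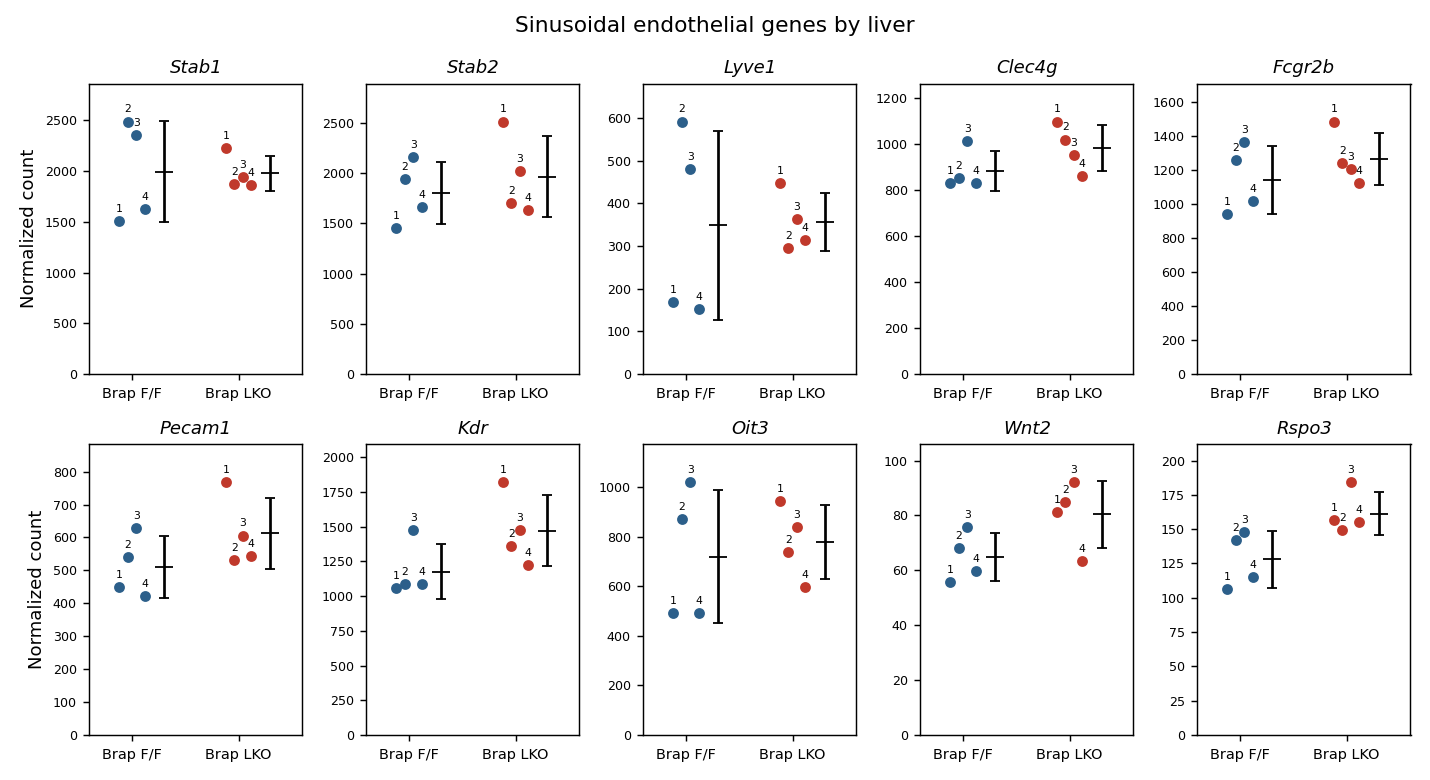
Normalized count (vertical axis, from 0) of each of the 10 genes in each liver, with points numbered by replicate, Brap F/F in blue and Brap LKO in red. The black bar and whiskers give the mean and SD of 4 livers. The groups overlap in every panel but that of Rspo3, and the Brap F/F livers are spread widest for Lyve1, from 153 to 592.

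Levels can be compared between genes only per length, so RPKM (reads per kilobase of exon and depth of counted reads) was computed from the recovered reads. On this scale Clec4g was the highest of the 10 in the Brap F/F livers (11.4 ± 1.01, SD, n = 4). Oit3 followed at 8.15 ± 2.81 (SD, n = 4), and the next genes, Stab2 (6.55 ± 0.922), Fcgr2b (6.28 ± 0.894) and Stab1 (6.14 ± 1.31), lay within 1 SD of each other. Kdr stood at 4.15 ± 0.653, Lyve1 at 3.74 ± 2.27 and Pecam1 at 2.6 ± 0.412, and the SD of Lyve1 spans both its neighbors. The ligands were lowest, with 1.31 ± 0.167 for Rspo3 and 0.915 ± 0.0981 for Wnt2. Their reads were few but enough to count, with at least 93 for Rspo3 and 49 for Wnt2 in any liver. The length used was that of all annotated exons of a gene. It exceeded the transcript with the longest coding sequence unequally. For Pecam1 it was 6228 against 2977 bases, for Fcgr2b 5790 against 3544 and for Oit3 2788 against 2717. The order of the genes therefore depends on the annotation, and it was not computed with transcript lengths.

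Promoter sequence is shown for the paired scavenger receptors, for the most abundant gene of the set, and for a ligand, Wnt2. These genes were picked after their letters were seen. RefSeq (GRCm38.p6) promoters were found for 6 of the 10 genes, namely Stab1, Stab2, Clec4g, Fcgr2b, Kdr and Wnt2. The 250 bases before the RefSeq start are given 5′ to 3′ on the gene's strand, with matches to either strand of 3 searched motifs in capitals. One motif was AGGAAG, the letters of an ETS-type site, a family that includes endothelial factors. The next was AGATAA, a site of GATA-type factors. The last was ACAATG, a site of SOX-type factors. All 4 genes lie on the reverse strand. For Stab2 and Wnt2 the GENCODE genes end at 87008025 and 18030585, so part of their windows lies inside the gene by that annotation.
Stab1, chr14:31168642-31168891: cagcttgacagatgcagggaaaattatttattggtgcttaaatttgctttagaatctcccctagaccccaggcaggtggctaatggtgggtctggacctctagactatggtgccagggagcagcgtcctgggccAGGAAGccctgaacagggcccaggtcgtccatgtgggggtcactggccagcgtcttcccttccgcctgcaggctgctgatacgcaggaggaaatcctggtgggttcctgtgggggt
Stab2, chr10:87007943-87008192: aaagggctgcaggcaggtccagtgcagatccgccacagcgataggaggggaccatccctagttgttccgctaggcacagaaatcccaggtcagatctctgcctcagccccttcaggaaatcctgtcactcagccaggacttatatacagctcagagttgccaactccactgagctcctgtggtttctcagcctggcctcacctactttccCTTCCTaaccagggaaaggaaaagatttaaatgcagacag
Clec4g, chr8:3720652-3720901: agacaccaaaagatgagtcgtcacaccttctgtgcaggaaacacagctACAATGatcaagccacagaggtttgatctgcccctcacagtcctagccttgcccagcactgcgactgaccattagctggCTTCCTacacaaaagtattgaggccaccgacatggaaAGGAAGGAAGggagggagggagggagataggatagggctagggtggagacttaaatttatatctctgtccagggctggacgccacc
Wnt2, chr6:18030446-18030695: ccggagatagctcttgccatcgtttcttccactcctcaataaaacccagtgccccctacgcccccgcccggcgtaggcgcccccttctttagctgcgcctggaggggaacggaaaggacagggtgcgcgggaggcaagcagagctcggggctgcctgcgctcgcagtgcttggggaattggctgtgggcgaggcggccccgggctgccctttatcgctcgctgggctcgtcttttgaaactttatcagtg
Stab1 and Stab2 hold 1 ETS-type match each. Clec4g holds 3, of which a pair overlaps by 2 letters, and it also has 1 SOX match. Wnt2 holds none of these motifs in this window, and neither do Kdr and Fcgr2b. Of 32851 promoter windows of the same length, 29.5% hold the ETS letters, 9.99% the GATA letters and 10.7% the SOX letters, so a match is common and marks no site.

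Stab1 and Stab2 encode the stabilins, large scavenger receptors that take up modified lipoproteins, matrix fragments and, for Stab2, hyaluronan. The genes are built alike, with 69 exons each and coding sequences of 7713 bases (Stab1-201) and 7677 bases (Stab2-201). Stab1 lies on chromosome 14 of mm10 from 31139013 to 31168641. It was counted at 2229, 1877, 1941 and 1863 in Brap LKO replicates 1 to 4 and at 1512, 2488, 2352 and 1625 in Brap F/F replicates 1 to 4. All Brap LKO livers lay inside the range of the Brap F/F livers, and the log2 fold change was 0.02 (95% confidence interval -0.35 to 0.38, adjusted p = 0.965 from limma). Stab2 lies on chromosome 10 from 86841198 to 87008025. Its counts were 2514, 1698, 2017 and 1630 in the Brap LKO livers and 1456, 1937, 2161 and 1667 in the Brap F/F livers. Both groups overlapped, with Brap LKO replicate 1 the highest liver of all, and the log2 fold change was 0.12 (95% confidence interval -0.24 to 0.47, adjusted p = 0.745 from limma). Neither sign was stable. Without Brap LKO replicate 1 the values were -0.04 for Stab1 and -0.01 for Stab2, and Stab1 was also below 0 without Brap F/F replicate 1 (-0.10), without Brap F/F replicate 4 (-0.07) and with DESeq2 (-0.012).

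Lyve1, a hyaluronan receptor shared by sinusoidal and lymphatic endothelium and by some macrophages, lies on chromosome 7 from 110850607 to 110863239. It was counted at 448, 296, 363 and 314 in the Brap LKO livers and at 169, 592, 481 and 153 in the Brap F/F livers. All 4 Brap LKO livers stood between an upper and a lower pair of Brap F/F livers. The highest Brap F/F liver had 3.87 times the count of the lowest, and the same ratio was 1.51 in the Brap LKO livers. The group means were nearly equal, at 355 ± 67.9 (SD, n = 4) and 349 ± 222 (SD, n = 4), while the fitted log2 fold change was 0.26 (95% confidence interval -0.69 to 1.20, adjusted p = 0.792 from limma). This was the widest interval of the 10 genes, and the value ran from -0.05 without Brap F/F replicate 4 to 0.60 without Brap F/F replicate 2. The difference in spread between the groups was not tested.

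Clec4g encodes LSECtin, a C-type lectin of the sinusoidal surface, on chromosome 8 from 3707064 to 3720651. Its counts were 1098, 1019, 954 and 861 in the Brap LKO livers and 832, 852, 1012 and 830 in the Brap F/F livers. It varied least of the 10, with the highest of all 8 livers at 1.32 times the lowest. Replicate 3 stood apart from the other Brap F/F livers, and the log2 fold change was 0.16 (95% confidence interval -0.06 to 0.37, adjusted p = 0.459 from limma). Of its exon bases, 146 (5.93%) are shared with Gm16553 on the opposite strand, and the use of strand in counting is not given in the sources used here.

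Fcgr2b encodes the inhibitory Fc gamma receptor, through which sinusoidal endothelium removes immune complexes and which B cells and macrophages also carry. It lies on chromosome 1 from 170958617 to 170976547. The counts were 1487, 1245, 1209 and 1124 in the Brap LKO livers and 941, 1258, 1364 and 1017 in the Brap F/F livers. Both groups overlapped, and the log2 fold change was 0.15 (95% confidence interval -0.14 to 0.45, adjusted p = 0.594 from limma). It was 0.07 when replicate 1 of Brap F/F was left out and 0.24 when replicate 3 of that group was. Of the 3495 windows of 50 bases, the read length, in transcript Fcgr2b-201, 249 (7.12%) also occur in a transcript of another gene, foremost its paralog Fcgr3, so part of this value is uncertain. In the other 9 genes, the transcript with the longest coding sequence shares no such window. Exon bases outside the transcripts searched were not checked.

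Oit3, which encodes a secreted zona pellucida domain protein of sinusoidal endothelium, lies on chromosome 10 from 59422958 to 59441778. Its counts were 944, 739, 838 and 596 in the Brap LKO livers and 493, 871, 1020 and 494 in the Brap F/F livers. It had the pattern of Lyve1 on a smaller scale, with Brap F/F replicates 1 and 4 below every Brap LKO liver, replicate 3 above all of them and replicate 2 above 3 of them. The log2 fold change was 0.17 (95% confidence interval -0.39 to 0.74, adjusted p = 0.764 from limma). It was 0.02 without either Brap F/F replicate 1 or replicate 4, and 0.37 without Brap F/F replicate 3.

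Pecam1 encodes CD31, the adhesion molecule that all endothelium and also platelets and leukocytes display, on chromosome 11 from 106654217 to 106750628. It was counted at 768, 532, 606 and 544 in the Brap LKO livers and at 448, 541, 628 and 422 in the Brap F/F livers. All 4 Brap LKO livers were above the Brap F/F mean of 510, but Brap F/F replicate 3 was above 3 of them. The log2 fold change was 0.27 (95% confidence interval -0.08 to 0.61, adjusted p = 0.429 from limma), and it ran from 0.15 without Brap LKO replicate 1 to 0.37 without Brap F/F replicate 3.

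Kdr encodes VEGFR2, the main signaling receptor for VEGF-A, on chromosome 5 from 75932827 to 75978458. It had the largest fitted difference of the 8 sinusoidal genes. Its counts were 1821, 1358, 1479 and 1222 in the Brap LKO livers and 1060, 1084, 1477 and 1085 in the Brap F/F livers. Only Brap F/F replicate 3 reached the Brap LKO range. The log2 fold change was 0.32 (95% confidence interval -0.002 to 0.64, adjusted p = 0.320 from limma), and the exact permutation test, two-sided, gave p = 0.0857. It fell to 0.21 without Brap LKO replicate 1 (adjusted p = 0.601) and was 0.43 without Brap F/F replicate 3 (adjusted p = 0.187).

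Wnt2 is a canonical Wnt ligand of pericentral endothelium, on chromosome 6 from 17988940 to 18030585. It was counted at 81.1, 85.0, 92.1 and 63.4 in the Brap LKO livers and at 55.9, 68.1, 75.7 and 59.9 in the Brap F/F livers. Replicates 1, 2 and 3 of Brap LKO exceeded the whole Brap F/F group and replicate 4 lay among them. The log2 fold change was 0.30 (95% confidence interval -0.07 to 0.67, adjusted p = 0.398 from limma), and the exact permutation test, two-sided, gave p = 0.114. After quantile normalization the log2 fold change of Wnt2 was 0.14 (adjusted p = 0.756).

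Rspo3 encodes the R-spondin that amplifies Wnt signals at the central vein by keeping Wnt receptors on the hepatocyte surface. It lies on chromosome 10 from 29452416 to 29535867. Its counts were 157, 150, 184 and 155 in the Brap LKO livers and 106, 142, 148 and 115 in the Brap F/F livers. It was the only one of the 10 in which every Brap LKO liver lay above every Brap F/F liver, a pattern seen in 5.48% of all tested genes (the reverse pattern was seen in 4.39%, and in 0 of the 10), and the gap between the groups was small (149.5 against 148.2 at the nearest livers). The mean was 161 ± 15.5 (SD, n = 4) against 128 ± 20.6 (SD, n = 4), so that the log2 fold change was 0.34 (95% confidence interval 0.03 to 0.65) and an adjusted p of 0.282 by limma, short of the threshold. The two-sided exact permutation test gave p = 0.0286, the smallest that 4 livers against 4 can give. Over 21 other settings its adjusted p ran from 0.0635 to 0.480. Of its exon bases, 404 (13.1%) are shared with Gm48159 on the opposite strand. Smaller shares overlap an opposite-strand gene in Fcgr2b (155 bases, 2.68%, Gm38204), Stab2 (141 bases, 1.61%, Gm16268) and Stab1 (112 bases, 1.09%, Nt5dc2).

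**Figure D2:**
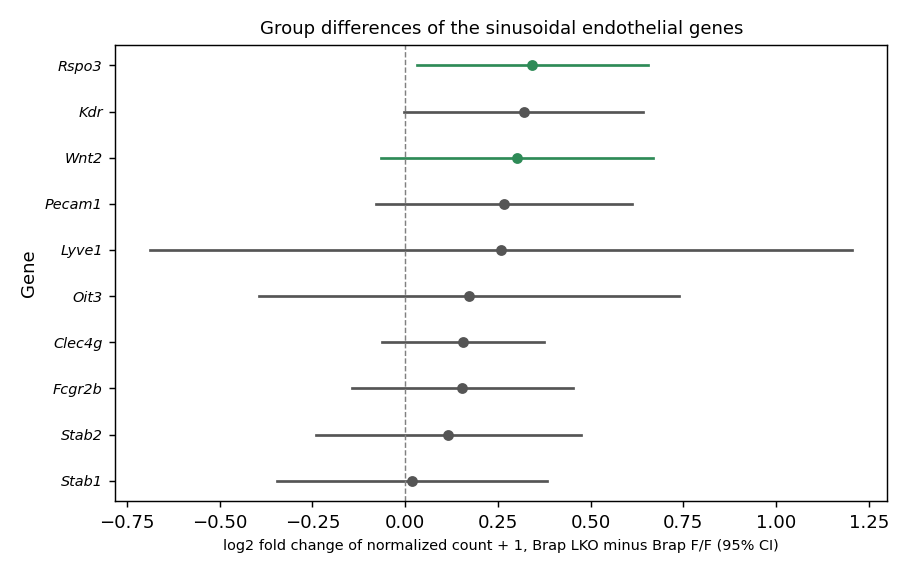
Log2 fold change of (normalized count + 1), Brap LKO minus Brap F/F (horizontal axis), with 95% confidence intervals from limma for each gene (vertical axis). Wnt2 and Rspo3 are green and the other genes grey. All points lie at or right of 0, the interval of Rspo3 alone stays clear of it (0.03 to 0.65), and that of Lyve1 is widest.

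The intervals bound what these livers could hide. For Stab1 the bounds were 0.787-fold and 1.30-fold, for Clec4g 0.958-fold and 1.30-fold, and for Rspo3 1.02-fold and 1.57-fold. Lyve1 was the least certain, with bounds of 0.621-fold and 2.30-fold.

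To ask whether single genes differed beside a gene that all endothelium carries, each was set against Pecam1 as a log2 difference within the same liver. Platelets and leukocytes also carry Pecam1, and their part in these differences was not tested. None (0) of the 9 genes differed between the groups (two-sided exact permutation tests over 70 arrangements, lowest adjusted p = 0.386 over 9 tests). With 4 livers a group a single gene cannot reach an adjusted p below 0.257 here, and 6 genes would have to reach the smallest p together to pass, so these tests could hardly make a call. At an unadjusted p under 0.05 the number was also 0. Stab1 exceeded Pecam1 by 1.70 ± 0.125 (SD, n = 4) for Brap LKO and by 1.95 ± 0.185 (SD, n = 4) for Brap F/F on the log2 scale, a difference of -0.25 (exact permutation p = 0.0857). For Stab2 the difference was -0.15 (exact permutation p = 0.0857). For the ligands it was 0.03 for Wnt2 and 0.08 for Rspo3 (exact permutation p = 0.857 and 0.629), so neither passed against Pecam1. Lyve1 against Pecam1 was tight in the Brap LKO livers (-0.79 ± 0.0429, SD, n = 4) and loose in the Brap F/F livers (-0.78 ± 0.782, SD, n = 4).

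The 10 genes rose and fell together between livers of the same group. After the group mean was taken from each value, the 28 pairs among the 8 sinusoidal genes had Pearson correlations from 0.49 to 0.98 with a median of 0.84 across the 8 livers. The closest pair was Stab1 with Lyve1 (0.98). Wnt2 and Rspo3 correlated with each other at 0.74 and with the sinusoidal genes at a median of 0.67 (16 pairs, 0.37 to 0.83). These correlations are a description of 8 livers, whose genes share a library, a size factor and a piece of tissue.

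Single livers show the pattern plainly. The mean deviation of the 8 sinusoidal genes was 0.24 and 0.37 in Brap F/F replicates 2 and 3 and -0.32 and -0.29 in Brap F/F replicates 1 and 4, on the log2 scale. Among the Brap LKO livers it was 0.28 in replicate 1 and between -0.20 and 0.02 in the others. Brap LKO replicate 1 and Brap F/F replicate 3 were thus the livers with the most sinusoidal transcript for their group. Lyve1 moved most, with deviations of 1.01 and -0.93 in Brap F/F replicates 2 and 4. Clec4g moved least, and Brap F/F replicate 2, high for Lyve1, was at -0.04 for Clec4g and -0.10 for Kdr.

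**Figure D3:**
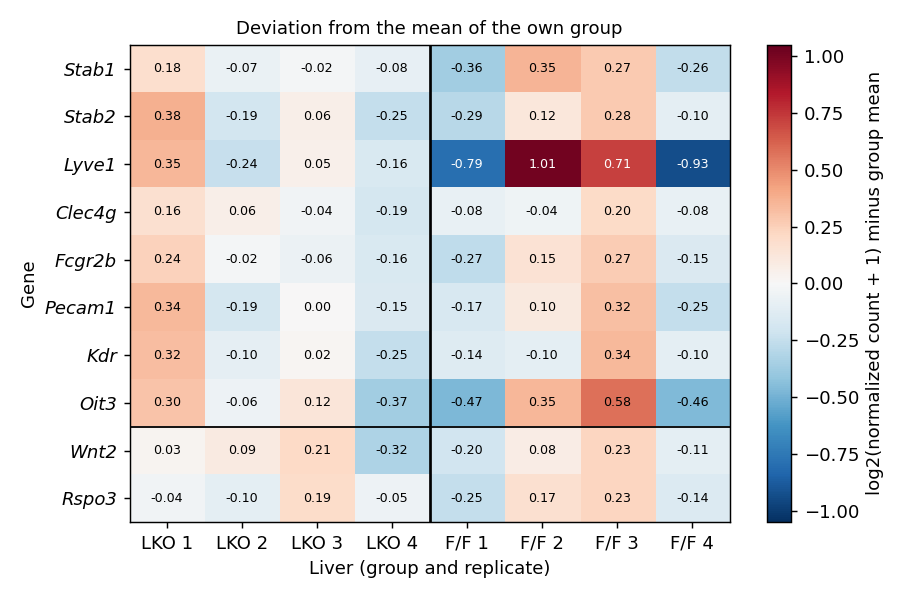
Deviation of log2(normalized count + 1) from the mean of the own group, for each gene (rows) and liver (columns), red above and blue below the mean. Brap F/F replicates 2 and 3 are red for most genes and replicates 1 and 4 blue for every gene, most strongly for Lyve1 (1.01 to -0.93).

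Of 11289 other genes with a mean of at least 50, those whose deviations followed the sinusoidal mean most closely included Flt4 (r = 0.993), Arhgap24 (0.985), Dstyk (0.980) and Fzd1 (0.980), over 8 livers. Flt4 encodes VEGFR3, itself a receptor of sinusoidal and lymphatic endothelium, Arhgap24 a GTPase-activating protein, Dstyk a protein kinase and Fzd1 a Wnt receptor. None of these 4 passed the threshold between the groups (lowest adjusted p = 0.202 from limma, for Arhgap24).

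Other endothelial genes, from lists outside the 10, were compared in the same way. Of 12 further sinusoidal genes, 0 passed the threshold in either direction, 11 were above 0, and the median log2 fold change was 0.20. The most abundant, Ehd3, which encodes an endocytic trafficking protein, was counted at 1753, 1629, 1787 and 1411 in the Brap LKO livers and at 1147, 2459, 2401 and 1303 in the Brap F/F livers. As with Lyve1, a high and a low pair of Brap F/F livers enclosed the Brap LKO livers. The largest change was that of F8, coagulation factor VIII (log2 fold change 0.37, adjusted p = 0.397 from limma). With equal totals per liver 1 gene passed, Gata4, a transcription factor of these cells (0.35, adjusted p = 0.0484 from limma), where 2.99% of all genes were higher. The deviations of this list followed the sinusoidal mean at r = 0.964 across the 8 livers.

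Of 21 genes of endothelium in general, 0 passed, 18 were above 0, and the median was 0.23, with r = 0.985 to the sinusoidal mean. Ptprb, an endothelial receptor phosphatase, was the most abundant (0.22 on the log2 scale, adjusted p = 0.651 from limma), and Fli1, an ETS transcription factor, differed most (0.51, adjusted p = 0.172 from limma). Of 5 genes of periportal endothelium 0 passed and 5 were above 0 (median 0.16), with Msr1 at 0.48 and Ltbp4 at 0.43. Without Brap F/F replicate 4 the median was 0.01 with 3 above 0, without Brap LKO replicate 1 it was 0.05, and after quantile normalization 0.09. Msr1 encodes a scavenger receptor that macrophages also carry. Its Brap F/F counts (251, 148, 161 and 269) were highest in replicates 1 and 4, where the sinusoidal genes were low. The part of macrophages in its value was not tested.

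Genes of continuous endothelium are those that capillarized sinusoids can gain. Of 14 listed, 11 were tested, 0 passed the threshold, 8 were above 0, and the median was 0.42, which was 0.25 after quantile normalization and 0.15 with edgeR. In 4 of the 11 (Cd34, Vwf, Cav1 and Selp, named for this count after their values were seen) every Brap LKO liver lay above every Brap F/F liver, where the background was 5.48%. Cd34, a sialomucin found on capillaries but scarce on healthy sinusoids, was counted at 109, 56.9, 84.0 and 132 in the Brap LKO livers and at 28.5, 37.6, 42.0 and 45.1 in the Brap F/F livers. Its log2 fold change of 1.25 (95% confidence interval 0.65 to 1.84) did not pass (adjusted p = 0.0735 from limma). Vwf, the carrier of factor VIII made by larger vessels, was counted at 486, 443, 405 and 383 against 251, 323, 284 and 312 (log2 fold change 0.55, adjusted p = 0.0611 from limma). Other settings did make calls in this list, where 2.73% of all genes were higher with DESeq2 and 2.99% with equal totals. DESeq2 passed 3 of 14, Cd34 (adjusted p = 0.00092), Vwf (0.00159) and Cav1 (0.0347). Equal totals passed Vwf and Cd34, and Cd34 also passed with the animal series as a covariate and without Brap LKO replicate 2. Plvap, the diaphragm protein of fenestrae and the most abundant of the list, was at -0.13 (adjusted p = 0.682 from limma). The deviations of this list followed the sinusoidal mean only at r = 0.537. Cd34 also marks other mesenchymal cells, and stellate cell genes, 1 of which passed, are given further on. Their part in these values was not tested.

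The remaining central-vein endothelial genes lay with Wnt2 and Rspo3. Of Wnt9b, Kit, Cdh13 and Thbd, 0 passed the threshold and 4 were above 0, with a median of 0.39 that fell to 0.24 after quantile normalization. Wnt9b, the second Wnt of the central vein, was counted at 62.9, 60.3, 52.6 and 54.1 in the Brap LKO livers and at 25.1, 45.8, 51.5 and 51.0 in the Brap F/F livers. Brap F/F replicate 1 was far below the other livers, and the log2 fold change was 0.45 (adjusted p = 0.386 from limma). In 2 of the 4 genes, Wnt9b and Cdh13, every Brap LKO liver lay above every Brap F/F liver, against 5.48% of all tested genes. Cdh13, named for this count after its values were seen, was at 0.41 (adjusted p = 0.237 from limma). Of 7 other Wnt and R-spondin ligands that could be tested, Wnt9b among them, 0 passed and 5 were above 0. Wnt5b was the most abundant (0.12) and Wnt11 had the largest value (1.24, adjusted p = 0.272 from limma) at a mean of 16.2 against 6.96. Below 0 were Rspo1 (-0.98, adjusted p = 0.446 from limma) and Wnt9a (-0.67, adjusted p = 0.273 from limma). The deviations of this list ran against the sinusoidal mean (r = -0.708 over 8 livers).

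On the hepatocyte side, 13 pericentral targets of Wnt and beta-catenin were tested. Of these 10 were above 0, with a median of 0.29, and 1 passed the threshold, Rhbg. The number was 3 with DESeq2 (Rhbg, Axin2 and Nkd1), 4 with equal totals per liver (the same 3 and Slc1a2) and 0 after quantile normalization. Among all genes 0.664% were higher with limma, 2.73% with DESeq2 and 2.99% with equal totals. Equal totals also moved the all-gene median to 0.15. Rhbg encodes an ammonium transporter of the hepatocytes nearest the central vein. It was counted at 169, 179, 165 and 205 in the Brap LKO livers and at 120, 79.3, 93.6 and 83.4 in the Brap F/F livers. Its log2 fold change was 0.94 ± 0.150 (standard error) with an adjusted p of 0.0313 by limma. Of 21 other settings, 12 kept it past the threshold. It did so in 2 of the 8 fits without 1 liver, those that left out replicate 1 or replicate 4 of Brap F/F, and the others reached an adjusted p of up to 0.102. The animal series, formed here from the animal numbers in the labels, was uneven between the groups. The first series held 3 livers of Brap LKO but 1 of Brap F/F, an imbalance in every comparison here. With the series as a covariate Rhbg did not pass (adjusted p = 0.0755 from limma).

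In 4 of the 13 targets, Rhbg, Axin2, Nkd1 and Tbx3, every Brap LKO liver lay above every Brap F/F liver, against 5.48% of all tested genes. Axin2, Nkd1 and Tbx3 are named for this count after their values were seen. Axin2, a feedback inhibitor that Wnt signaling induces, was counted at 454, 398, 451 and 478 in the Brap LKO livers and at 307, 350, 271 and 333 in the Brap F/F livers. At a log2 fold change of 0.50 it did not pass (adjusted p = 0.0628 from limma), nor did that of Nkd1 (0.57, adjusted p = 0.0830) or Tbx3 (0.44, adjusted p = 0.156). Cyp2e1, the most abundant target, lay the other way (-0.42, adjusted p = 0.457 from limma), and the other 2 below 0 were Lect2 (-0.30) and Cyp1a2 (-0.07). Among 13 tested Wnt receptors and their regulators 0 passed, with a median of 0.09. Rnf43, which removes Wnt receptors from the surface, passed with DESeq2 (adjusted p = 0.0413), with equal totals (0.0485) and without Brap F/F replicate 4 (0.0249). Among all genes 2.73%, 2.99% and 178 of 15359 were higher in these settings, in turn. Lgr5, the receptor for R-spondins on pericentral hepatocytes, was at 0.75 (adjusted p = 0.291 from limma), and its counts in the Brap F/F livers ran from 97.6 to 280. The deviations of the pericentral targets did not track those of the sinusoidal genes (r = -0.195 over the 8 livers).

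**Figure D4:**
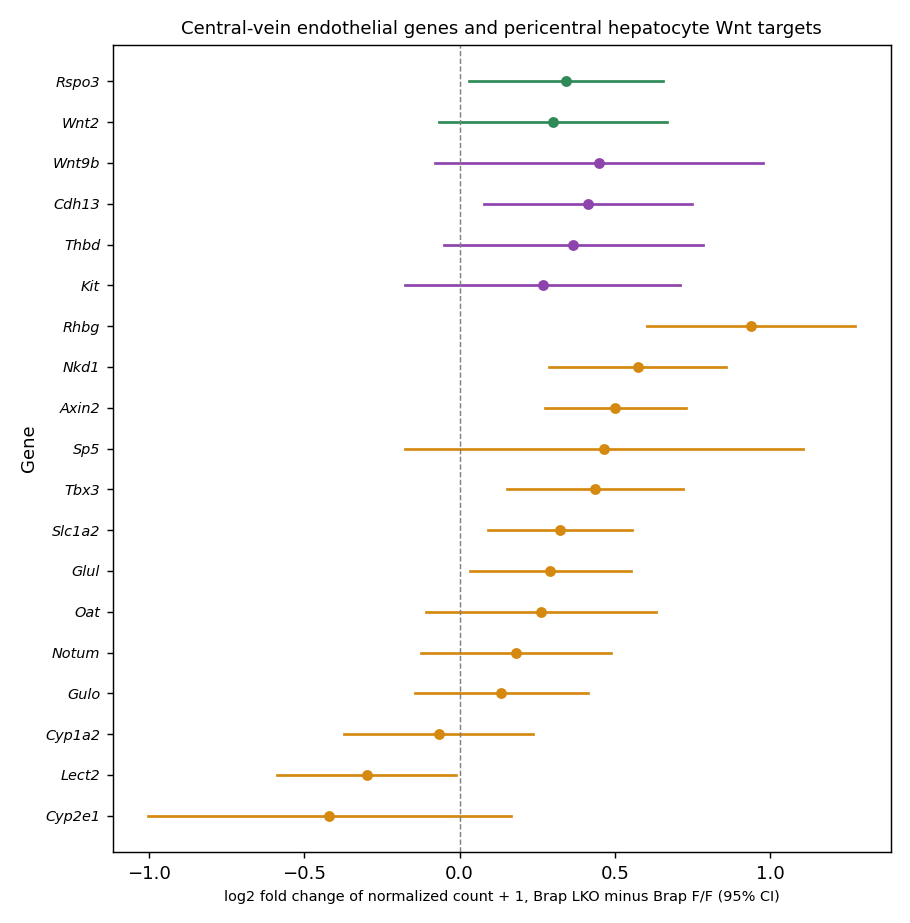
Log2 fold change of (normalized count + 1), Brap LKO minus Brap F/F (horizontal axis), with 95% confidence intervals from limma for Wnt2 and Rspo3 (green), other central-vein endothelial genes (purple) and pericentral hepatocyte targets of Wnt (orange). Rhbg (0.94) is the only gene shown whose adjusted p is under 0.05, and 3 targets lie left of 0.

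The ligands and receptors around Kdr did not differ detectably. Of 13 VEGF and angiopoietin genes 12 were tested, 0 passed, 9 were above 0 and the median was 0.17. Vegfa, the ligand of Kdr made by hepatocytes, was counted at 5293 ± 546 (SD, n = 4) for Brap LKO and 5102 ± 368 (SD, n = 4) for Brap F/F, and the log2 fold change was 0.05 (95% confidence interval -0.16 to 0.26). Angpt1 had the largest value (0.83, adjusted p = 0.258 from limma). Of 10 hyaluronan genes, whose product Stab2 and Lyve1 bind, 6 were tested, 0 passed and the median was -0.07. This median was 0.23 without a filter and 0.20 with DESeq2, but both of these ran over 8 genes. The added genes, Tnfaip6 and Cemip, had at most 4 and 3 reads in any liver. With equal totals it was 0.09, below the all-gene median of 0.15 in that setting. Over 6 genes its sign changed when a single control liver was dropped, to 0.01 for replicate 2 of Brap F/F and 0.02 for replicate 3. In the other fits lacking 1 liver it stayed below 0. Hyal2, a hyaluronidase and the most abundant, was at -0.21 (adjusted p = 0.296 from limma), and Hmmr had the largest value (0.78, adjusted p = 0.511 from limma).

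Several of the 10 genes are also carried by other cells, so the markers of those cells are given. All 12 macrophage genes were tested, 0 passed and 11 were above 0 (median 0.29, or 0.17 without Brap LKO replicate 1), while DESeq2 passed 1, Lyz2 (adjusted p = 0.0151). Their summed normalized count ran from 7956 to 14201 in the Brap LKO livers and from 7862 to 11263 in the Brap F/F livers. The Kupffer cell gene Clec4f was at 0.02 and the scavenger receptor gene Marco at 0.96 (adjusted p = 0.433 from limma). Of 10 lymphocyte genes 0 passed and 10 were above 0 (median 0.62), with sums from 339 to 597.5 against 257.5 to 335. The B cell gene Ms4a1 had the largest value, at a mean of 15.6 against 4.19, and Ptprc, common to leukocytes, was at 0.66 (adjusted p = 0.103 from limma). DESeq2 passed both of these genes (adjusted p = 0.0347 and 0.00951), and equal totals passed Ptprc (0.0447). Among all genes 2.73% were higher with DESeq2 and 2.99% with equal totals. The deviations of neither list followed the sinusoidal mean (r = -0.0341 and -0.0963 over 8 livers). Their part in the values of Fcgr2b, Pecam1, Lyve1 and Stab1 was not tested.

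Markers of neighboring cell types included single genes that passed. Of 10 stellate cell genes 1 passed, 8 were above 0 and the median was 0.38, with sums from 8547 to 12788 in the Brap LKO livers and from 5746 to 10142 in the Brap F/F livers. Pdgfrb was the one to pass. It encodes the PDGF receptor of stellate cells and pericytes (0.91 on the log2 scale, adjusted p = 0.0494 from limma), and it kept its place in 10 of 21 other settings and in 1 of the 8 fits without 1 liver, that without Brap F/F replicate 4. Col1a1 was at 1.44 (adjusted p = 0.103 from limma). DESeq2 passed 3 genes, Pdgfrb, Col1a1 (adjusted p = 0.00281) and Col3a1 (0.0116), as did the fit with the replicate block, and 2 passed without Brap F/F replicate 4. Among all genes 2.73% were higher with DESeq2, 80 of 15352 with the block and 178 of 15359 without that liver. The list's median was 0.21 without Brap F/F replicate 1, and its most abundant gene, Dcn, was at 0.37. Of 7 cholangiocyte genes 6 were tested, 1 passed and 6 were above 0 (median 0.95), with sums from 1350 to 3020 against 718 to 1486. That was Cftr, a chloride channel, with 18, 19, 6 and 17 reads in the Brap LKO livers and 0, 1, 2 and 1 in the Brap F/F livers (adjusted p = 0.0331 from limma). It held in 2 of the 8 fits without 1 liver, those that left out replicate 3 of Brap LKO or replicate 4 of Brap F/F. Of 10 hepatocyte genes 9 were tested, 0 passed and 3 were above 0 (median -0.25, -0.09 with the same total per liver and 0 after quantile normalization), with sums from 2388282 to 3198145 against 2858875 to 4200626. Alb was at -0.52 (adjusted p = 0.634 from limma). The deviations of the stellate cell and hepatocyte lists followed the sinusoidal mean at r = 0.638 and 0.648 over 8 livers, and those of the cholangiocyte list at -0.280. The part of these cells in the endothelial values was not tested.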

How the data were processed

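RNA of 8 livers (4 Brap LKO, 4 Brap F/F) was sequenced by the authors as single-end reads of 50 bases and aligned to mm10 with STAR 2.6.0c. The counting tool, annotation release and use of strand are not given in the sources used here. The deposited signal is a read count per gene that the authors had scaled by each liver's DESeq2 size factor. All values (100%) were whole multiples, within 0.01 of a read, of the smallest value above 0 in their liver, so reads were recovered by division. A deposited DESeq2 comparison (fold changes and p-values) was not used. The number of per-liver columns left out was 0.

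Groups were compared with limma 3.58.1 in R 4.3.3 (mean-variance trend, no covariates) on log2(normalized count + 1), for genes with a mean of at least 5, at a threshold of 0.05 after Benjamini-Hochberg adjustment. The paper's own test models counts, so edgeR 4.0.16 and DESeq2 1.42.0 on recovered reads were alternatives. Other alternatives were pseudocounts of 0.5 and 5, a minimum mean of 20 or no filter, and scaling by quantiles, equal totals or TMM. Further ones were limma without trend or robust, a block for the replicate number, and a covariate for the animal series. Each liver was also left out in turn. The series was formed here from the labels' animal numbers, and the labels name no series. The fit was tested on simulated data. The 95% confidence intervals rest on the spread between livers after limma drew it toward a trend over all tested genes. An interval, that of Lyve1 included, is thus not the one its own spread alone would give. Floors were not needed for the 10 genes. Each liver carries its own animal number in the labels. Positions and exon lengths came from GENCODE M21 (mm10). Named are the 10 genes, listed genes past the threshold, the most abundant and most changed gene of each list, and the 5 genes most like the sinusoidal mean, of which 1 is not reported here. Other named genes were chosen after their values were seen. The genes and lists were chosen with earlier results of these data known. Summaries and plots used Python 3.11.15 with matplotlib 3.10.9, scipy 1.17.1, pandas 2.3.3 and numpy 2.4.6.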

Additional observations from a re-analysis of the deposited data

Results flagged for a closer look

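In 2 of the 20 groups of 4 livers examined (10 genes in each genotype), a single liver lay far from the rest judged by the gap to its nearest neighbor over the whole range, and about 1 such group would arise by chance. Both were Brap F/F replicate 3. Kdr was counted at 1477 there and at most 1085 in the other Brap F/F livers. Clec4g was counted at 1012 there and at most 852 in the others. No explanation was tested for either value.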

How the results depend on the processing

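The number of the 10 genes past the threshold was 0 in all 21 other settings, and leaving out 1 liver in turn gave 0 to 0. At an unadjusted p under 0.05 the number ran from 0 to 6, the highest after scaling to equal totals, which shifted the all-gene median from -0.01 to 0.15. Over all genes, 102 were higher and 16 lower with limma, 448 and 159 with DESeq2, 459 and 20 after equal totals, and 62 and 16 after quantile normalization. Leaving out 1 liver gave 11 to 178 higher and 4 to 54 lower. Of 210 values of single genes in other settings, 203 kept their direction and side of the threshold and 7 changed sign. With DESeq2, Stab1 was at -0.012. With the animal series as a covariate all 10 genes were above 0 (median 0.23), from 0.11 for Stab1 to 0.47 for Lyve1. With 1 liver left out, Stab1 ran from -0.10 to 0.14, Stab2 from -0.0093 to 0.21 and Lyve1 from -0.052 to 0.60. Against Pecam1, 93 values kept their direction. The other 6 came with 1 liver left out, where Lyve1 ran from -0.23 to 0.29, Wnt2 from -0.058 to 0.14 and Kdr from -0.016 to 0.10. The cause was not tested.

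Livers share replicate numbers between the groups, but same-numbered livers did not deviate together in every pair (correlations of -0.129, 0.00336, 0.196 and 0.292). Differently numbered livers were not compared, so these values cannot settle whether the number marks a pair. With the replicate block, 0 of the 10 genes passed, 2 had an unadjusted p under 0.05, and Rspo3 was at 0.34 (adjusted p = 0.252 from limma). With the block, Rhbg (adjusted p = 0.0705) and Cftr (0.0771) did not pass and Pdgfrb did (0.0219), as did Col1a1 (0.0160), Col3a1 (0.00754), Spp1 (0.0193) and Tbx3 (0.0491), which had not passed without it. Set against Pecam1 with the pairing kept, 16 arrangements allow no p under 0.125. Of 62 values of Rhbg, Cftr and Pdgfrb in other settings, 27 fell short of the threshold. A minimum mean of 20 gave no value for Cftr. With 4 livers a group, the size of a difference in Lyve1 is the least certain of the 10 genes.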

Other observations

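Lymphatic vessels and blood could also add to endothelial transcripts. Of 4 lymphatic genes 3 were tested and 0 passed. Ccl21a, a defining chemokine, had at most 7 reads in any liver and Pdpn a mean of 13.9 in the Brap LKO livers against 6.36 in the Brap F/F livers. Prox1, which hepatocytes also express, was counted at 8620 ± 545 (SD, n = 4) against 6766 ± 747 (SD, n = 4), and the log2 fold change was 0.35 (adjusted p = 0.111 by limma). It passed with DESeq2 (adjusted p = 0.0227) and with equal totals per liver (0.0358), where 2.73% and 2.99% of all genes were higher. Of 8 platelet and red cell genes 7 were tested, 0 passed and 3 were above 0, with a median of -0.04 and Hbb-bs at -0.06. The largest value was that of Pf4 (0.80, adjusted p = 0.426 from limma). The deviations of this list followed the sinusoidal mean at r = 0.653 over 8 livers.

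Nrp1, a coreceptor for VEGF, ran against the sinusoidal genes in the Brap F/F livers. It was counted at 4528, 993, 1485 and 3191 in replicates 1 to 4, where Lyve1 was at 169, 592, 481 and 153. In the Brap LKO livers it ran from 2274 to 3661. Nrp1 was picked out after its values were seen, and nothing was tested on it beyond the comparison of the groups (log2 fold change 0.34, adjusted p = 0.714 from limma).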
